A study of Mus musculus with 9 samples.

Results

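The genes described here are 8 genes of cholesterol synthesis and of its regulator SREBP2, namely Srebf2, Insig1, Hmgcs1, Idi1, Fdps, Sqle, Lss and Dhcr7. They were chosen by name from earlier results of these same libraries, and the values that led to the choice are not recorded. Their levels, differences and slopes are therefore a description, and no p-value is printed for a member. Where members past a threshold in the fit across all genes are counted, nothing is read from the count. All 8 were found among the 54532 genes of the table, and all 8 were abundant enough to be included in the fit. The RNA came from HC11 cells, an established mouse mammary epithelial line, grown in DMEM with serum in a 12-well dish, and the labels give its strain as C57BL/6. Cells of the EpPT2 and EpPT1 groups were exposed to 660 nm light and those of the Ctrl group were untreated, with 3 libraries in each group. The sample labels give 20 J/cm2 for EpPT2 and 10 J/cm2 for EpPT1, but the protocol for the exposure states a laser of 10 mW and fluences of 0.5 and 1 J/cm2, and no dose is attached to a group name here. How long after exposure the cells were lysed is not stated in the labels. Whether the 3 libraries of a group derive from separate cultures is not stated either, so the tests reflect spread among libraries that may be technical. EpPT2 2 and EpPT2 3 were much closer to each other than any other pair within a group.

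Animal cells make cholesterol from acetyl-CoA through mevalonate and isoprenoid intermediates, then through squalene and lanosterol. When sterols in the endoplasmic reticulum are scarce, the membrane-bound transcription factor SREBP2, encoded by Srebf2, is carried by SCAP to the Golgi and cleaved there, and the freed part activates the synthesis genes and genes of cholesterol uptake. When sterols are plentiful, INSIG proteins hold SCAP in the endoplasmic reticulum, and the synthesis genes are transcribed less. In mammary epithelium the pathway also serves the membrane and milk lipid of lactation. Cleavage of SREBP2 was not measured here, and RNA levels of Srebf2 do not report it.

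Promoters of the members were read from RefSeq on build GRCm38.p6, as the 250 bases before each annotated start and the first 50 bases after it. Windows were found for 6 of the 8 genes, 8 windows in all, and Sqle and Fdps were not matched. The motifs searched on both strands were TCACNCCAC, the core of a sterol regulatory element, CCAAT, the CCAAT box, and GGGCGG, the GC box. No match overlapped another in the bases shown. The sterol regulatory element core was found in 1 of the 8 member windows, that of Hmgcs1, where it lay 137 to 129 bases before the start on the coding strand. The same letters were found in 0 of 13 windows of 12 other synthesis genes and in 1.24% of all 32851 windows. A CCAAT box was found in 6 of the 8 member windows, against 37.4% of all windows, and a GC box in 7 of the 8, against 35.7%. These matches are descriptions of letters in a window and not binding sites. The sequences of Hmgcs1, which holds the sterol element, of Idi1, whose level ranged most widely, and of Srebf2, whose level did not follow the other members, are shown. The last 2 were picked after their values were seen. Each is on the plus strand, 5′ to 3′, with the motif matches in capitals, and they lie at chr13:119690101-119690350, chr13:8885356-8885605 and chr15:82147019-82147268.
Hmgcs1: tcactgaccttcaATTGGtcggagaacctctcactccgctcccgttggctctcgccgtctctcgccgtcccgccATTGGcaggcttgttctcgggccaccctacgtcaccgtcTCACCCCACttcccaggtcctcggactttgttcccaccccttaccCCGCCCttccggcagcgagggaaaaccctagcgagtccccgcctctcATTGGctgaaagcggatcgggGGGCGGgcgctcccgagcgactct
Idi1: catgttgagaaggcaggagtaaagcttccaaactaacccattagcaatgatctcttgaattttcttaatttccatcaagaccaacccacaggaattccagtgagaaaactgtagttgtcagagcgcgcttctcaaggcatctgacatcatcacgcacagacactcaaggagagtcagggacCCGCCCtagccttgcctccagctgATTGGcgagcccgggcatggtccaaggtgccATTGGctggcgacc
Srebf2: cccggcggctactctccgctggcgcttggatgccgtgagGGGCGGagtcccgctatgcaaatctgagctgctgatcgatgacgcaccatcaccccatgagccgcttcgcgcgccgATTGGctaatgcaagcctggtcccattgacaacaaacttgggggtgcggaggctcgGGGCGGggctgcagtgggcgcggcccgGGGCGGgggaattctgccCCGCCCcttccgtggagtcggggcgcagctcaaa

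Across the whole table, the 9 libraries held 14549787 to 17228929 counts, and 14471 genes were tested. In edgeR's quasi-likelihood test with Benjamini-Hochberg adjustment, 0 of these genes passed 0.05 in EpPT2 against Ctrl, in EpPT1 against Ctrl or in EpPT2 against EpPT1, where 1763, 568 and 31 had an unadjusted p under 0.05. DESeq2 called 62, 1 and 0 genes in these comparisons and limma-voom 0 in each. Mitochondrial genes took 6.06% to 7.48% of the counts in 4 libraries (EpPT2 2 and 3, EpPT1 3 and Ctrl 3) and 2.74% to 3.62% in the other 5, so that both kinds were present in every group. The limit of 5% between them was set after these shares were seen. The slope of a library's log2 levels on gene GC content was 0.186 to 0.291 per 10 percentage points in EpPT2, -0.355 to 0.368 in EpPT1 and -0.495 to -0.223 in Ctrl. The luminal keratin Krt8 reached 558.9 to 836 CPM (counts relative to library size, scaled by TMM) and Krt18 759.9 to 1127 CPM, whereas the epithelial cadherin gene Cdh1 was near 0, at 0.227 to 0.777 CPM. The summed level of 5 blood and immune markers was 88.0 to 103 CPM in the 4 libraries with the higher mitochondrial share and 9.74 to 46.1 CPM in the other 5. By group the sum was 13.2 to 89.9 CPM in EpPT2, 11.5 to 98.9 CPM in EpPT1 and 9.74 to 103 CPM in Ctrl. Nearly all of it was Cd68, at up to 102 CPM, while Ptprc, Cd3e, Hbb-bs and Lyz2 each stayed at or under 0.806 CPM. The sum of 4 basal markers, mostly Krt14, was 19.4 to 23.6 CPM in the 4 libraries with the higher share and 4.71 to 9.81 CPM in the other 5. In the fibroblast list nearly the whole sum was Dcn, at 733 to 3288 CPM, while Col1a2 and Lum were at or near 0. In bulk RNA, fewer cells of a type and less RNA per cell cannot be told apart.

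Per kilobase of the gene length that the authors' table gives, Sqle had the highest mean level over the 9 libraries, at 29.5 CPM per kilobase, followed by Hmgcs1 at 18.8 and Srebf2 at 13.1. Idi1 and Insig1 had means of 4.08 and 3.97 CPM per kilobase, Lss and Dhcr7 of 2.45 and 2.12, and Fdps of 0.288. On the log2 CPM scale the SD over the 9 libraries was 1.62 for Idi1, larger than in 99.1% of tested genes. Hmgcs1 and Fdps followed with SDs of 0.83 and 0.77, and Srebf2 and Sqle varied least, with 0.30 and 0.31, against a median of 0.47 for all tested genes.

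**Figure D1:**
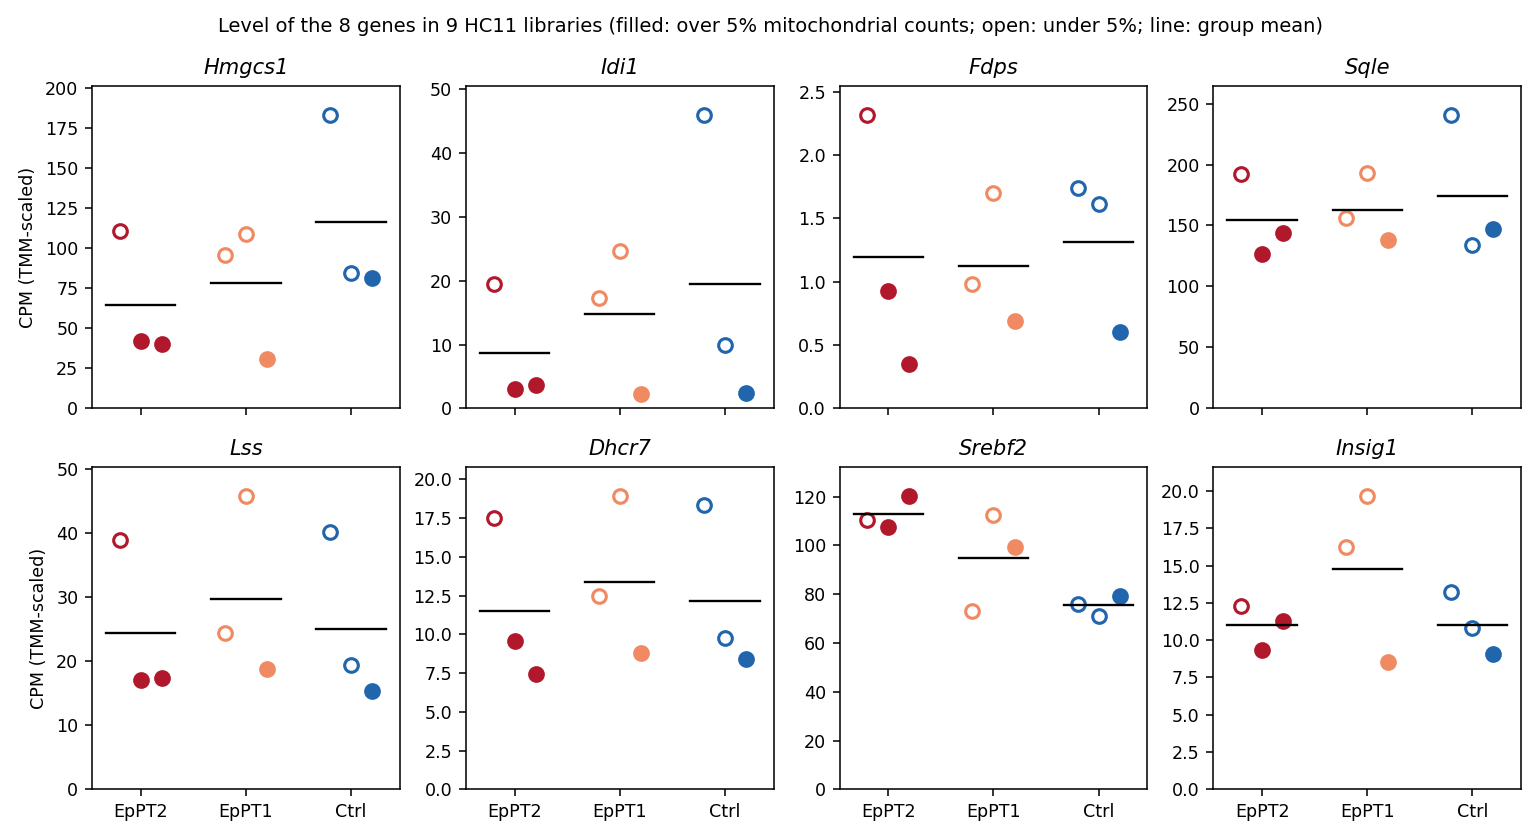
TMM-scaled CPM (vertical axes, linear, each starting at 0) of the 8 genes in each of 3 EpPT2, 3 EpPT1 and 3 Ctrl libraries, one point per library, with the group mean as a line and filled points for libraries with over 5% mitochondrial counts. In Hmgcs1, Idi1, Fdps, Lss and Dhcr7 every filled point lies below every open one, with a wide gap only in Idi1. In Srebf2 the 3 EpPT2 points, at 107 to 120.2 CPM, lie above the 3 Ctrl points, at 71.1 to 79.2 CPM.

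Srebf2, which encodes the regulator itself (ENSMUSG00000022463, chromosome 15, 82147181 to 82205379), was the 1 member whose EpPT2 and Ctrl libraries did not overlap. Its level was 110.4, 107 and 120.2 CPM in EpPT2, 73.2, 112 and 99.3 CPM in EpPT1, and 75.8, 71.1 and 79.2 CPM in Ctrl. All 3 EpPT2 libraries were above all 3 Ctrl libraries, while the EpPT1 libraries reached into both ranges. Group means were 113 ± 6.68 CPM in EpPT2, 95.0 ± 19.9 in EpPT1 and 75.4 ± 4.07 in Ctrl (SD, n = 3 each), and the fitted log2 difference was 0.58 ± 0.21 (SE) in EpPT2 against Ctrl, 0.33 ± 0.21 in EpPT1 against Ctrl and 0.25 ± 0.21 in EpPT2 against EpPT1. Against Ctrl, the groups did not overlap for 23.2% of all tested genes in EpPT2, of which Srebf2 was the only one among 8 members, and for 5.26% in EpPT1, with 0 of 8 members. Between EpPT2 and EpPT1 the share was 2.45%, also with 0 of 8 members. The transcript is GC-rich, at 57.9% against a median of 49.4% for tested genes. With each library's trend on GC content removed, its log2 difference was -0.05 ± 0.20 in EpPT2 against Ctrl, -0.07 ± 0.20 in EpPT1 against Ctrl and 0.02 ± 0.20 in EpPT2 against EpPT1. The GC slopes of all EpPT2 libraries were above those of all Ctrl libraries. Removing the trend therefore also removes any exposure difference that follows GC content, for Srebf2 and the genes below. A GC bias and such a difference cannot be told apart here. With the mitochondrial share as a covariate the difference of Srebf2 in EpPT2 against Ctrl was 0.57 ± 0.18.

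Insig1 (ENSMUSG00000045294, chromosome 5, 28071363 to 28078662) encodes the sterol-regulated protein that retains SCAP in the endoplasmic reticulum and is itself a classic SREBP2 target. It had 12.3, 9.37 and 11.3 CPM in EpPT2, 16.2, 19.6 and 8.53 CPM in EpPT1, and 13.2, 10.8 and 9.08 CPM in Ctrl. The 2 highest values were both from EpPT1, and so was the lowest, so every pair of groups overlapped. Means were 10.99 ± 1.49 CPM in EpPT2, 14.8 ± 5.69 in EpPT1 and 11.04 ± 2.07 in Ctrl (SD, n = 3 each). The log2 difference was -0.01 ± 0.34 (SE) in EpPT2 against Ctrl, 0.42 ± 0.34 in EpPT1 against Ctrl and -0.43 ± 0.34 in EpPT2 against EpPT1.

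Among the enzymes that make and use mevalonate, Hmgcs1 (ENSMUSG00000093930, chromosome 13, 119690379 to 119708260) makes HMG-CoA, the precursor of mevalonate. Its level was 111, 42.0 and 40.5 CPM in EpPT2, 95.7, 109 and 30.7 CPM in EpPT1, and 183, 84.8 and 81.4 CPM in Ctrl. The highest value was that of Ctrl 1, and the 3 lowest were those of EpPT1 3, EpPT2 3 and EpPT2 2, all with over 5% mitochondrial counts. Means were 64.5 ± 40.2 CPM in EpPT2, 78.4 ± 41.8 in EpPT1 and 116 ± 57.8 in Ctrl (SD, n = 3 each). The log2 difference was -0.85 ± 0.55 (SE) in EpPT2 against Ctrl and -0.57 ± 0.54 in EpPT1 against Ctrl, and it was -0.28 ± 0.54 in EpPT2 against EpPT1. With the mitochondrial share as a covariate these were -0.71 ± 0.28, -0.81 ± 0.28 and 0.10 ± 0.28. Without Ctrl 1, the difference was -0.36 in EpPT2 against Ctrl and -0.08 in EpPT1 against Ctrl. Of 21 alternatives run, which reuse the same libraries, 0 changed the sign in either of these comparisons. The ranges were -1.504 to -0.255 and -0.882 to -0.08. In EpPT2 against EpPT1, 4 changed it.

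Idi1 (ENSMUSG00000058258, chromosome 13, 8885501 to 8892451), the isomerase that makes dimethylallyl diphosphate from isopentenyl diphosphate, spanned a 20.1-fold range. It had 19.6, 3.03 and 3.60 CPM in EpPT2, 17.4, 24.6 and 2.29 CPM in EpPT1, and 46.0, 9.99 and 2.33 CPM in Ctrl, which are 741 counts in Ctrl 1 and 31 in Ctrl 3. EpPT2 2, EpPT2 3, EpPT1 3 and Ctrl 3 were at or under 3.60 CPM, while the other 5 libraries were at 9.99 CPM or above. Means were 8.73 ± 9.38 CPM in EpPT2, 14.8 ± 11.4 in EpPT1 and 19.4 ± 23.3 in Ctrl (SD, n = 3 each), with an SD above the mean in EpPT2 and in Ctrl. The log2 difference was -1.15 ± 1.098 (SE) in EpPT2 against Ctrl, -0.40 ± 1.08 in EpPT1 against Ctrl and -0.76 ± 1.09 in EpPT2 against EpPT1. With the share as a covariate it was -0.23 ± 0.38 in EpPT2 against Ctrl. Without Ctrl 1 the sign of both differences from Ctrl turned, to 0.50 in EpPT2 and 1.26 in EpPT1. Of 21 alternatives run, 2 changed the sign in EpPT2 against Ctrl and 4 in EpPT1 against Ctrl. The ranges were -2.56 to 0.50 and -0.98 to 1.26.

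Fdps (ENSMUSG00000059743, chromosome 3, 89093588 to 89101959), the synthase of farnesyl diphosphate, was the least abundant member and its values are uncertain. It had 38, 14 and 5 counts in EpPT2, 17, 30 and 10 counts in EpPT1, and 28, 27 and 8 counts in Ctrl, 177 in all. The log2 difference was -0.14 ± 0.71 (SE) in EpPT2 against Ctrl, -0.23 ± 0.71 in EpPT1 against Ctrl and 0.09 ± 0.72 in EpPT2 against EpPT1. Of the 4398 stretches of 50 bases in its exons, 26.2% also occur in other genes, among them processed pseudogenes. One of these, Gm3571 on chromosome 10 (93778660 to 93779719), was looked up for this reason after the low counts were seen, and it held 780 counts. Its level was 8.83, 2.44 and 2.61 CPM in EpPT2, 5.54, 7.98 and 3.40 CPM in EpPT1, and 7.88, 5.98 and 3.60 CPM in Ctrl. In Gm3571, as in Fdps, the 4 libraries with over 5% mitochondrial counts were lower than the other 5. How the counting divided reads between the gene and its copies is not stated. Gm43738, which shared 1030 of the 4398 stretches, held 0 counts. The shared part was 25.3% for Idi1, 11.6% for Hmgcs1 and at most 2.17% for the other members. The genes sharing most with Idi1 and Hmgcs1, Gm13502 and Gm48342, held 41 and 21 counts.

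Of the members that act from squalene onward, Sqle (ENSMUSG00000022351, chromosome 15, 59315077 to 59331192), the squalene epoxidase and second control point of the pathway, was the most even. It had 193, 126 and 144 CPM in EpPT2, 156, 193 and 138 CPM in EpPT1, and 240.5, 134 and 147 CPM in Ctrl. Ctrl 1 was again the highest, and all groups overlapped. Its log2 difference was -0.17 ± 0.28 (SE) in EpPT2 against Ctrl, -0.10 ± 0.28 in EpPT1 against Ctrl and -0.07 ± 0.28 in EpPT2 against EpPT1. Without Ctrl 1 the sign turned in both comparisons with Ctrl, to 0.14 in EpPT2 and 0.21 in EpPT1. Over the alternatives run, the lowest differences were -0.37 in EpPT2 against Ctrl and -0.25 in EpPT1 against Ctrl.

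Lss (ENSMUSG00000033105, chromosome 10, 76531588 to 76557138), which closes squalene epoxide to lanosterol, had 38.9, 17.1 and 17.4 CPM in EpPT2, 24.5, 45.8 and 18.8 CPM in EpPT1, and 40.1, 19.4 and 15.4 CPM in Ctrl. In each group 1 library was at 38.9 to 45.8 CPM and the others were at or under 24.5 CPM. Means were 24.5 ± 12.5 CPM in EpPT2, 29.7 ± 14.2 in EpPT1 and 24.99 ± 13.3 in Ctrl (SD, n = 3 each). Dhcr7 (ENSMUSG00000058454, chromosome 7, 143823145 to 143848410), the reductase of the last step to cholesterol, followed the same order of libraries within EpPT1 and Ctrl. Its level was 17.5, 9.57 and 7.41 CPM in EpPT2, 12.5, 18.9 and 8.80 CPM in EpPT1, and 18.4, 9.75 and 8.41 CPM in Ctrl. For Lss the log2 difference was -0.03 ± 0.48 (SE) in EpPT2 against Ctrl and 0.25 ± 0.48 in EpPT1 against Ctrl. For Dhcr7 these were -0.08 ± 0.44 and 0.14 ± 0.44. In EpPT2 against EpPT1, Lss differed by -0.28 ± 0.48 and Dhcr7 by -0.22 ± 0.44. Without Ctrl 1, Lss was 0.49 in EpPT2 against Ctrl and 0.77 in EpPT1 against Ctrl, and Dhcr7 was 0.34 and 0.56. Other alternatives moved them down. Over those run, Lss ranged from -0.54 to 0.49 in EpPT2 against Ctrl and from -0.21 to 0.77 in EpPT1 against Ctrl. Dhcr7 ranged from -0.53 to 0.34 and from -0.20 to 0.56.

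**Figure D2:**
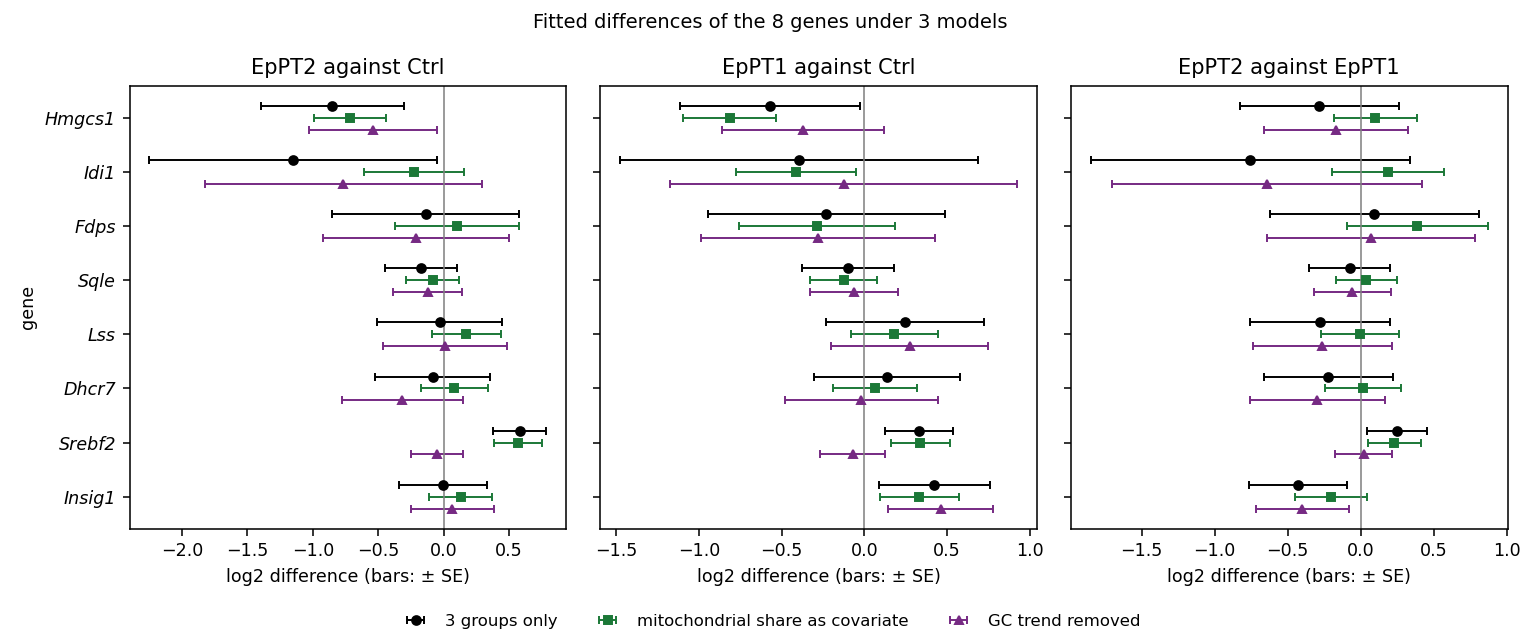
Fitted log2 differences of the 8 genes (horizontal axes, with bars of ± SE) in EpPT2 against Ctrl, EpPT1 against Ctrl and EpPT2 against EpPT1, from the fit to the 3 groups alone, with the mitochondrial share as a covariate and with the GC trend removed. For Srebf2 the difference in EpPT2 against Ctrl is 0.58, 0.57 and -0.05 in the 3 fits, and for Idi1 it is -1.15, -0.23 and -0.77 with the widest bars.

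Over the 8 members, 0 passed the test in EpPT2 against Ctrl, 0 in EpPT1 against Ctrl and 0 in EpPT2 against EpPT1, beside 0% of all tested genes in each. In EpPT2 against Ctrl the median log2 difference of the members was -0.11, with 7 of 8 below 0, beside -0.03 for all tested genes. In EpPT1 against Ctrl the median was 0.02, with 4 below 0 and 4 above, beside -0.02 for all genes. In EpPT2 against EpPT1 it was -0.25, with 6 of 8 below 0, beside -0.01 for all genes. The 2 comparisons against Ctrl share the Ctrl libraries. Without Ctrl 1, 1 of 8 members was below 0 in EpPT2 against Ctrl, with a median of 0.24, and 1 of 8 in EpPT1 against Ctrl, with a median of 0.45. With the mitochondrial share as a covariate, 3 of 8 were below 0 in EpPT2 against Ctrl, with a median of 0.09, and 2 of 8 in EpPT2 against EpPT1, with a median of 0.07.

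The members also differed between libraries within each group. Hmgcs1, Idi1, Fdps, Lss and Dhcr7 were each lower in all 4 libraries with over 5% mitochondrial counts than in all of the other 5, which makes 5 of 8 members, beside 18.0% of all tested genes. Sqle, Insig1 and Srebf2 overlapped between these libraries. The gap was wide only in Idi1, between 3.60 and 9.99 CPM. It was narrow in Hmgcs1 (81.39 and 84.85 CPM), Lss (18.79 and 19.43), Dhcr7 (9.57 and 9.75) and Fdps (0.924 and 0.981). In a fit with the 3 groups and the mitochondrial share together, added after the data were seen, 6 of the 8 members were called lower with a rising share, beside 21.6% of all tested genes. Since the members were chosen from these libraries, this count is no independent support for a relation to the share. The share also followed the replicate number: all libraries numbered 1 were under 5% and all numbered 3 over it. With the replicate number as a block, 1 of the 8 members was called, beside 185 of all 14471 tested genes in either direction. The slope in log2 units per percentage point was -0.82 ± 0.09 (SE) for Idi1, -0.39 ± 0.11 for Fdps, -0.33 ± 0.06 for Hmgcs1, -0.27 ± 0.06 for Lss, -0.24 ± 0.06 for Dhcr7 and -0.15 ± 0.06 for Insig1. Sqle, at -0.11 ± 0.04, and Srebf2, at 0.02 ± 0.04, were not called. The median slope of the members was -0.26, beside -0.01 for all tested genes. Leaving out each library in turn, 4 to 7 members were called, the fewest without EpPT2 1, where 1872 of 14913 tested genes were called lower. The part of Cd68, Krt14 and the other markers in these slopes was not tested.

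Averaged over the 8 members, the centred log2 level was 0.58, -0.46 and -0.55 in EpPT2 1, 2 and 3, 0.18, 0.69 and -0.63 in EpPT1 1, 2 and 3, and 0.77, -0.05 and -0.53 in Ctrl 1, 2 and 3. The highest and lowest libraries of each group lay further apart than the group means did from each other. Dhcr7 and Lss stayed closest to the mean of the other members, with root-mean-square distances of 0.154 and 0.19 log2 units, and Idi1 and Srebf2 were farthest, at 1.15 and 0.734. Among 9623 genes with a mean of at least 5 CPM outside the members, those nearest to the members' mean profile over the 9 libraries were Ubr7, Ddx1, Epb41, Ttf2 and Frmd4a, at distances of 0.09, 0.096, 0.1, 0.103 and 0.107, against a median of 0.57. Of the other synthesis genes, Nsdhl was nearest, at rank 67 and a distance of 0.165.

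The 15 other enzymes of the pathway were read beside the members. In each of the 3 comparisons 0 of 15 passed the test, with median log2 differences of -0.01 in EpPT2 against Ctrl, 0.09 in EpPT1 against Ctrl and -0.03 in EpPT2 against EpPT1. The largest differences among those above 5 CPM were those of the sterol isomerase gene Ebp, 0.74 ± 0.25 (SE) in EpPT2 against Ctrl and 0.52 ± 0.25 in EpPT1 against Ctrl, of the phosphomevalonate kinase gene Pmvk, 0.57 ± 0.42 in EpPT2 against Ctrl, and of the mevalonate kinase gene Mvk, 0.82 ± 0.59 in EpPT1 against Ctrl. Ebp and Tm7sf2 were the 2 of 15 whose EpPT2 and Ctrl libraries did not overlap, both higher in EpPT2, beside 23.2% of all tested genes in either direction. With the GC trend removed, Ebp was 0.65 and Pmvk 0.03 in EpPT2 against Ctrl.

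With the mitochondrial share, 8 of the 15 were called lower, beside 21.6% of all tested genes, and 0 higher, beside 20.2%. With the replicate number as a block, 0 of the 15 were called, beside 185 of all 14471 tested genes in either direction. Of the lists described after them, 0 genes were called with the block. Among the 8 called lower without the block were Acat2, which makes acetoacetyl-CoA, with a slope of -0.40 ± 0.07 (SE), and the decarboxylase gene Mvd with -0.49 ± 0.11. Others were Mvk with -0.32 ± 0.08, the sterol dehydrogenase gene Nsdhl with -0.25 ± 0.06, Hsd17b7 with -0.24 ± 0.05 and the squalene synthase gene Fdft1 with -0.19 ± 0.06. For Acat2, Mvk, Nsdhl and Hsd17b7, 4 of the 15, the 4 libraries with the higher share were all below the other 5, beside 18.0% of all tested genes. Without EpPT2 1, the count called lower was 4 of 15, beside 1872 of 14913 tested genes.

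**Figure D3:**
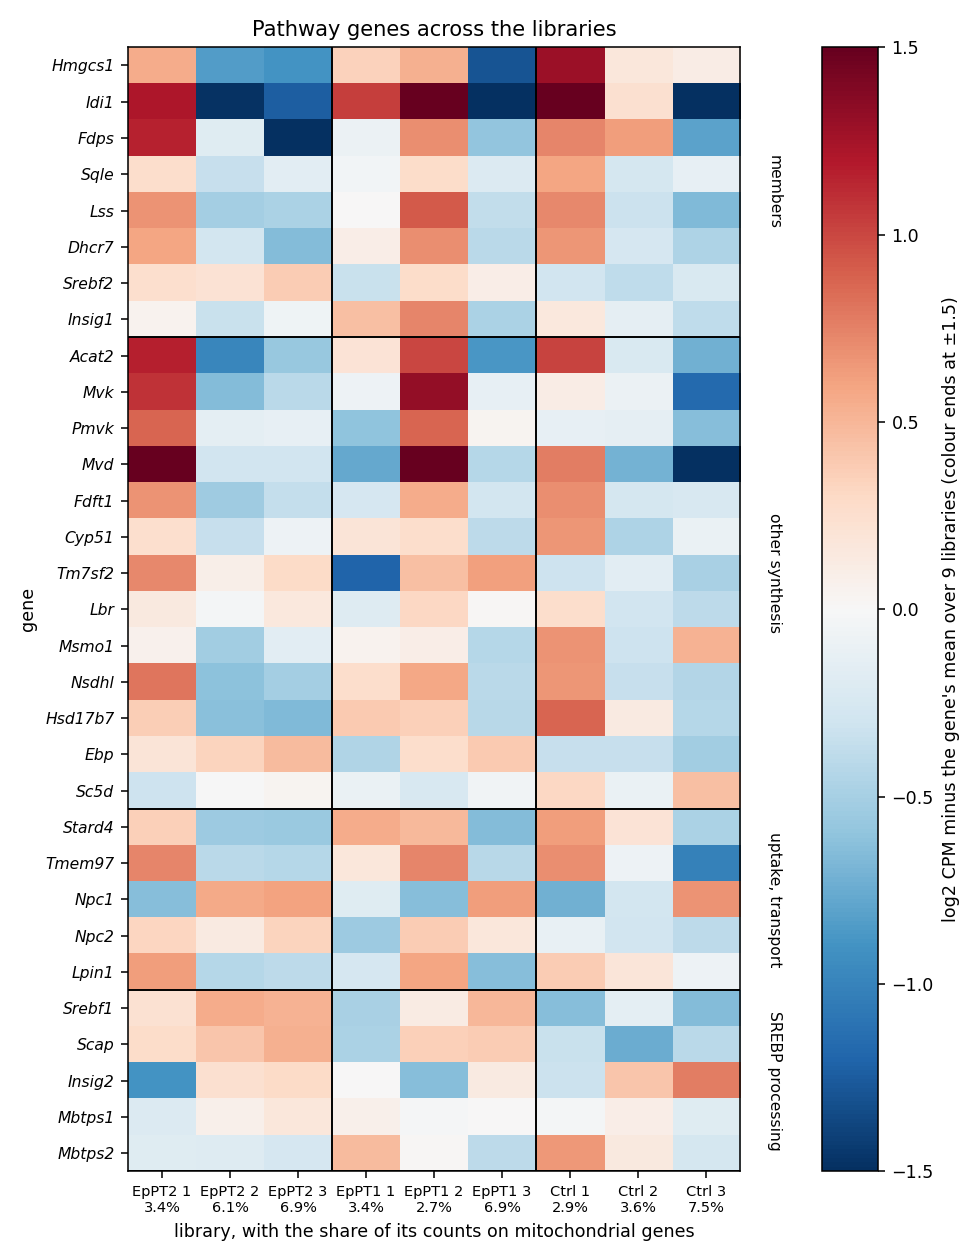
Log2 CPM minus each gene's mean over the 9 libraries (colour, ending at ±1.5) for the 8 members, 13 other synthesis genes, 5 genes of the uptake and transport list and 5 SREBP-processing genes (rows), with the libraries in columns and their mitochondrial share under each name. Idi1 and Hmgcs1 are pale or blue in EpPT2 2, EpPT2 3, EpPT1 3 and Ctrl 3, whereas Srebf2, Srebf1, Scap and Ebp are pale or red in EpPT2 and pale or blue in Ctrl.

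The partners of SREBP2 in its processing were 5 genes, of which 0 passed in any of the 3 comparisons. Scap, which encodes the escort protein, had 69.6, 77.1 and 83.02 CPM in EpPT2, 41.5, 73.6 and 75.1 CPM in EpPT1, and 45.5, 34.4 and 43.5 CPM in Ctrl. The EpPT2 libraries were all above the Ctrl libraries, with log2 differences of 0.90 ± 0.26 (SE) in EpPT2 against Ctrl and 0.62 ± 0.26 in EpPT1 against Ctrl. Srebf1, whose protein SREBP1 serves mainly fatty acid synthesis, had 177, 221 and 215 CPM in EpPT2, 108, 164 and 213 CPM in EpPT1, and 96.4, 136 and 95.4 CPM in Ctrl. Its log2 difference was 0.91 ± 0.28 in EpPT2 against Ctrl and 0.57 ± 0.27 in EpPT1 against Ctrl, and again the EpPT2 and Ctrl libraries did not overlap. Scap and Srebf1 were the 2 of 5 genes without overlap, beside 23.2% of all tested genes in either direction. Both transcripts are GC-rich, at 59.1% for Scap and 58.4% for Srebf1, and with the GC trend removed the differences in EpPT2 against Ctrl were 0.15 for Scap and 0.23 for Srebf1. Insig2, the relative of Insig1, was -0.38 ± 0.37 in EpPT2 against Ctrl and -0.48 ± 0.37 in EpPT1 against Ctrl, and it was called higher with a rising mitochondrial share, as were 20.2% of all tested genes, at 0.20 ± 0.05 per percentage point.

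Of 7 genes in a list of SREBP2 targets and of cholesterol uptake and transport, 0 passed in the 3 comparisons. The median log2 difference of the 7 was 0.27 in EpPT2 against Ctrl and 0.21 in EpPT1 against Ctrl, beside -0.03 and -0.02 for all tested genes. With the GC trend removed the medians were -0.09 and 0.16, beside -0.07 and -0.03 for all tested genes. With a rising mitochondrial share 5 of the 7 were called lower, beside 21.6% of all tested genes. Among them was Lpin1, which is not a gene of cholesterol uptake or transport. Without EpPT2 1 it was 3 of the 7, beside 1872 of 14913 tested genes. Tmem97 had the lowest slope, at -0.30 ± 0.04, and Npc1, which exports cholesterol from lysosomes, was called higher at 0.30 ± 0.04.

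The remaining lists lie around the pathway, and 0 of their tested genes passed in the 3 comparisons. Among 10 genes of sterol-driven protein degradation in the endoplasmic reticulum, Syvn1, an endoplasmic reticulum ubiquitin ligase, was 1.06 ± 0.58 (SE) and Aup1 0.96 ± 0.41 in EpPT2 against Ctrl. With the GC trend removed these were 0.56 and 0.22. Both genes were called higher with a rising mitochondrial share. Among 8 tested genes of the oxysterol receptor, efflux and storage list, Apoe was 1.14 ± 0.51 and the receptor gene Nr1h2 1.11 ± 0.39 in EpPT2 against Ctrl, while the cholesterol exporter gene Abca1 was -0.80 ± 0.47. With the GC trend removed, Apoe was 0.34, Nr1h2 0.29 and Abca1 -0.69. Abca1 and the storage enzyme gene Soat1 were called lower with a rising share, at -0.30 ± 0.06 and -0.35 ± 0.08. Among 14 genes of the isoprenoid branches, the CAAX protease gene Rce1 had the largest difference, 1.36 ± 0.29 in EpPT2 against Ctrl and 1.00 ± 0.29 in EpPT1 against Ctrl. Its level was 25.04, 28.8 and 35.1 CPM in EpPT2, 15.2, 25.02 and 29.2 CPM in EpPT1, and 10.2, 12.6 and 11.9 CPM in Ctrl, so that both exposed groups lay above Ctrl. In either direction, 4 of the 14 genes did not overlap in EpPT2 against Ctrl, beside 23.2% of all tested genes. In EpPT1 against Ctrl it was 1 of 14, beside 5.26%. With the GC trend removed the difference of Rce1 was 0.79 in EpPT2 against Ctrl and 0.60 in EpPT1 against Ctrl. Pggt1b, a prenyltransferase subunit gene, was -0.83 ± 0.40 in EpPT2 against Ctrl and the methyltransferase gene Icmt 0.46 ± 0.23 in EpPT1 against Ctrl. With the GC trend removed they were -0.47 and 0.24.

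**Figure D4:**
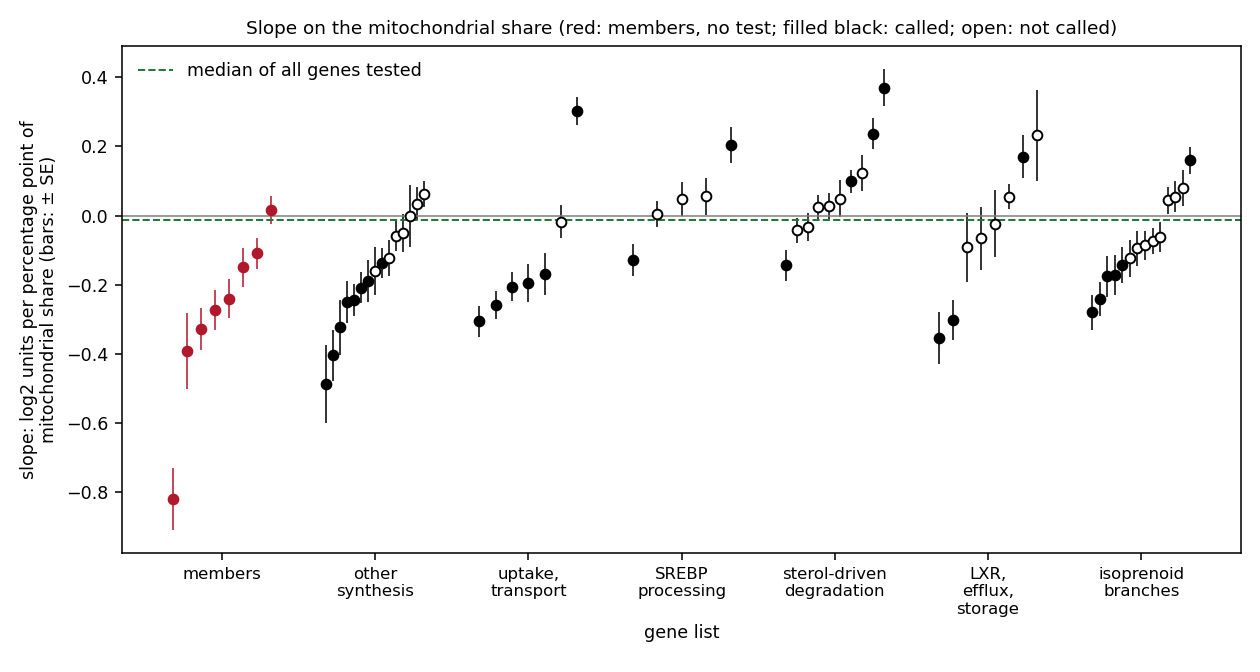
Slope of each gene on the mitochondrial share (vertical axis, log2 units per percentage point, with bars of ± SE) from the fit with the 3 groups, by gene list, with members in red, other genes filled where called and open where not. Of the members, Idi1 is lowest at -0.82 and Srebf2 alone is above 0, at 0.02, and the dashed line marks the median of all tested genes, -0.01.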

How the data were processed

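RNA-seq counts per gene of 9 HC11 libraries came from a single deposited table, raw and whole, whose gene length column served only for levels per kilobase. Bowtie 0.12.2 and build mm8 are named in the submitters' processing notes, but start and end equal GENCODE release 21 on GRCm38 for 98.3% of 54409 matched IDs, so coordinates are GRCm38. The counter and its strand setting are not stated. The series title names human breast epithelium and the design text an LED, while organism and gene IDs are mouse.

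In R 4.3.3, edgeR 4.0.16 was run with TMM scaling, filterByExpr and 1 fit for all 9 libraries, with two-sided quasi-likelihood tests and a threshold of 0.05 on Benjamini-Hochberg adjusted p. Of 28724 genes with a count, 14471 were tested. Levels are TMM-scaled CPM, and log2 CPM used a prior count of 2. The fit was tested on simulated data. The median SE of a log2 difference was 0.37, at a common BCV of 39.3%. A slope on the mitochondrial share was added to the groups after the data were seen, and GC content was removed per library as a spline offset with 5 degrees of freedom. Alternatives were DESeq2 1.42.0 and its size factors, limma-voom 3.58.1, other filters, the replicate number as a block, the libraries under 5% mitochondrial counts, and leaving out each library. No pair of libraries of a group agreed within sampling noise. The lowest chi-square per gene was 4.74, for EpPT2 2 and EpPT2 3. The next lowest was 49.7, for Ctrl 1 and Ctrl 2, so EpPT2 2 and 3 were far more alike than any other pair within a group.

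The members, the other lists and the rules were chosen with earlier results of these data known. Named beside the members are Srebf1, Scap, Insig2 and Abca1, the 2 genes of each other list with the largest difference from Ctrl in each exposed group and a mean of at least 5 CPM, and the 5 genes nearest in profile. Some genes that the rule names are not reported here. Genes named for slopes, gaps between libraries or shared sequence were chosen after their values were seen.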

Additional observations from a re-analysis of the deposited data

How the results depend on the processing

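The members called in the 3 comparisons stayed at 0 under every alternative run, and each move of the members' median differences was smaller than the SD of that median between libraries of a group. Their direction still changed: leaving out each library gave -0.53 to 0.24 in EpPT2 against Ctrl, -0.23 to 0.45 in EpPT1 against Ctrl and -0.73 to 0.09 in EpPT2 against EpPT1. The count of all genes called changed. Without the filter on low counts it was 268 in EpPT2 against Ctrl, 32 in EpPT1 against Ctrl, 2 in EpPT2 against EpPT1 and 132 in any group, and by DESeq2 62, 1, 0 and 2. Leaving out each library in turn gave 0 to 2 in EpPT2 against Ctrl, 2 without EpPT1 1, and the cause was not tested. Without EpPT2 1, the difference of Fdps was -1.04 in EpPT2 against Ctrl and -0.82 in EpPT2 against EpPT1. For the slope on the mitochondrial share, leaving out each library gave 3880 to 7262 genes called, the fewest without EpPT2 1, 4 to 7 members and 4 to 9 other synthesis genes called lower. Same-numbered libraries were not alike throughout. Correlations of their deviations from group means ran from 0.149 to 0.732 for number 1. They ran from -0.636 to 0.064 for number 2 and from 0.627 to 0.729 for number 3. Between differently numbered libraries they reached 0.746, for EpPT1 2 and EpPT2 1. With the replicate block, 185 genes, 1 member and 0 other synthesis genes were called on the slope, and 331, 1 and 0 with the block and the GC offset together. The block changed no call of a member in the 3 comparisons. Depth limits Fdps most, at 5 to 38 counts per library.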

Other observations

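Ch25h, which makes 25-hydroxycholesterol, a known suppressor of SREBP2 processing, had 0 counts in all 9 libraries, which allows up to 0.174 to 0.206 unscaled CPM by library, counting error only. Mvd spanned 2.89 to 12.6 CPM in EpPT2, 2.08 to 10.9 CPM in EpPT1 and 1.05 to 6.02 CPM in Ctrl, and the highest library was EpPT2 1, EpPT1 2 and Ctrl 1 in its group.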
